A study of Homo sapiens with 8 samples.

Results

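Genes of ribosome biogenesis and the nucleolus were followed in MOLM-13 cells, a human acute myeloid leukemia cell line, after knockdown (KD) of the splicing factor PTBP1. A list of 49 gene symbols defined the set, and all 49 were found among the 62639 genes of the transcript table (16474 with any count). The cells carried 1 lentiviral, doxycycline (dox)-inducible short hairpin RNA, either against PTBP1 (shPTBP1, 4 libraries) or scrambled (shSCR, 4 libraries, labelled shControl), and both groups received dox for 9 days. Each library is labelled a biological replicate, so that p values measure the spread between these replicates, and loss of PTBP1 cannot be told apart from anything else in which the cells with each hairpin differ. Extracted RNA was made into cDNA libraries and sequenced as long reads on a nanopore instrument. The deposited counts of reads per annotated transcript were summed here to genes. In bulk RNA, a change in the share of cells of one kind and a change of RNA per cell cannot be told apart.

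Ribosomes are built in the nucleolus. RNA polymerase I transcribes the ribosomal DNA into a long precursor, small nucleolar ribonucleoproteins (snoRNPs) guide methylation (box C/D) or pseudouridylation (box H/ACA) of its bases, and large assemblies of processing factors cut it and fold it into the 40S and 60S subunits. Many of these genes are known targets of the transcription factor MYC, and leukemia cells are known for high rates of ribosome production.

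Libraries held 1528449 to 1613342 counts, and 0.508% to 0.569% of them fell on the 49 genes. PTBP1 itself had 10, 15, 13 and 23 counts in the shPTBP1 libraries and 65, 90, 64 and 78 in the shSCR libraries. The groups did not overlap, and the log2 fold change (shPTBP1 minus shSCR, here and below) was -2.26 ± 0.22 (SE, n = 4 per group, adjusted p = 7.2e-05 in the quasi-likelihood test of edgeR). All 10 myeloid leukemia markers on the list had counts, with summed levels of 749 to 858 CPM (counts scaled to a fixed library size, after normalization) in shPTBP1 and 683 to 730 CPM in shSCR, and none of the 7 tested was called. CD3D, CD3E and MS4A1 of the lymphoid list and the globin genes HBB, HBG1 and HBG2 were at 0 in all 8 libraries. Lymphoid markers summed to 11.4 to 17.1 CPM in shPTBP1 and 13.4 to 28.7 CPM in shSCR, with 3 of 6 having counts, and epithelial and stromal markers to 10.8 to 17.8 and 13.4 to 19.7 CPM, with 6 of 6 having counts. The share of counts on mitochondrially encoded genes was 1.83% to 2.18% in shPTBP1 and 1.09% to 1.88% in shSCR. The part of these values in the results below was not tested.

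No gene of the set passed the test in either direction. Of the 49 genes, 43 had enough counts to be tested, and 0 were called lower and 0 higher by edgeR (Benjamini-Hochberg adjusted p under 0.05), where 3.19% of the 7597 genes tested were called lower and 2.36% higher (5.54% in all). At an unadjusted p under 0.05 the set held 5 higher genes (GNL3, DKC1, DDX21, NIP7 and EBNA1BP2) and 1 lower gene (NOC2L), where 9.1% of all genes tested were higher and 10.1% lower (19.2% in all). DESeq2, which gave 38 members an adjusted p, and limma-voom also called 0 members. Over all genes, DESeq2 called 157 lower and 157 higher of 5293 with an adjusted p, and limma-voom 220 lower and 156 higher of 7597. At an unadjusted p under 0.05, DESeq2 had 2 members and limma-voom 5, and the shares over all genes were not counted for these. Over these 43 genes, log2 fold changes had a median of 0.03 and quartiles of -0.06 and 0.16, beside a median of -0.00014 and quartiles of -0.19 and 0.16 over all genes tested. By sign alone, 25 of the 43 values were positive and 18 negative.

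The intervals show how large a change these libraries leave room for. The 95% interval of the log2 fold change lay within 0.5 of 0, a change below 1.41-fold, for 27 of the 43 genes, and within 1 of 0, a change below 2-fold, for 41 of them. The same held for 41.9% and 84.8% of all genes tested. The genes of the set also had more counts: the median normalized level, not divided by length and so a statement of depth, was 99.5 CPM for the tested genes of the set and 30.4 CPM for all genes tested, and the part of depth in the widths was not tested. The smallest change that passed the test in any gene was 0.20 on the log2 scale, and the median size of the called changes was 0.55.

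**Figure D1:**
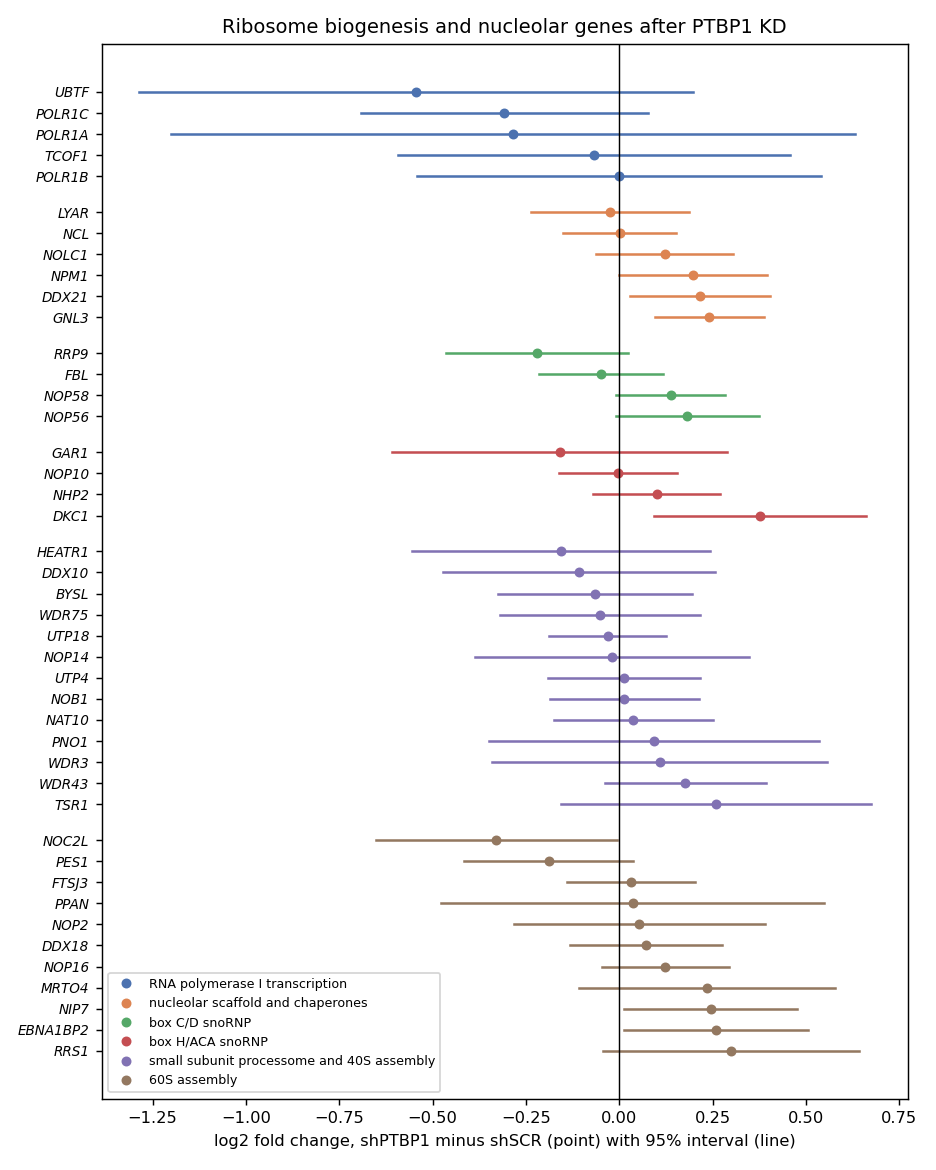
Log2 fold change (shPTBP1 minus shSCR, horizontal axis) of the 43 tested genes, with the 95% interval as a line, grouped and colored by role. The points lie between -0.54 (UBTF) and 0.38 (DKC1), the widest intervals are those of POLR1A and UBTF, and no gene passed the test at an adjusted p under 0.05.

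A sequence feature that the list did not use was common in the set. The E-box CACGTG, which MYC binds together with MAX and which reads the same on both strands, was searched in RefSeq promoter windows (GRCh38.p14) of 250 bases before and 50 bases from the start site on. It was present in 19 of the 42 members with a window (45.2%), in 13.1% of the 6202 tested symbols with a window, and in 8.77% of all 27305 symbols. By role it was found in 7 of 13 small subunit genes, 5 of 13 large subunit genes, 3 of 5 scaffold genes, 2 of 4 box H/ACA genes, 2 of 3 box C/D genes and 0 of 4 RNA polymerase I genes. The 22 matches began between 237 bases before and 43 bases after the start site, with a median of 4.5 bases after it. NOP58, TCOF1, NOLC1, RRS1, DDX18, BOP1 and RRP12 had no window. The stretches below surround the match in members of each of the other 5 roles, with the E-box in capitals, and are shown because they hold the motif that was counted.
GNL3 (chr3:52686026-52686055, plus strand): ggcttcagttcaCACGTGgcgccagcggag
DDX21 (chr10:68956604-68956633, plus strand): ggccgggtgtccCACGTGgtccccggcgac
FBL (chr19:39846356-39846385, minus strand): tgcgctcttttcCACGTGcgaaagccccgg
RRP9 (chr3:51941892-51941921, minus strand): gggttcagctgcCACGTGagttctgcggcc
NOP10 (chr15:34343130-34343159, minus strand): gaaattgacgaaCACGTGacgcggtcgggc
UTP18 (chr17:51260538-51260567, plus strand): gcagcgaggttcCACGTGagcgcctgcgtt
UTP18 (chr17:51260445-51260474, plus strand): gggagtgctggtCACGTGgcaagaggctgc
WDR43 (chr2:28894658-28894687, plus strand): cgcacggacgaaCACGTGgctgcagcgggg
NAT10 (chr11:34105602-34105631, plus strand): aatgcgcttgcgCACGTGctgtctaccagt
PES1 (chr22:30591880-30591909, minus strand): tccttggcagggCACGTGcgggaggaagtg
EBNA1BP2 (chr1:43172790-43172819, minus strand): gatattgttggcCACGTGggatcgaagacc
The median log2 fold change was 0.00 for the 18 tested members that hold the E-box and 0.02 for the 20 that have a window without it, a description for which no test was made. A match is a run of letters in this window, and binding of MYC was not measured here.

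For MYC no difference was found. Its normalized CPM was 419, 466, 425 and 407 in the 4 shPTBP1 libraries and 413, 458, 432 and 406 in the 4 shSCR libraries, which overlap throughout. The log2 fold change was 0.01 ± 0.07 (SE), with a 95% interval of -0.13 to 0.15 and an adjusted p of 0.972 in edgeR. For its partner MAX the interval was -0.24 to 0.20. Of the 8 regulators of the MYC network on the list, 6 were tested, 1 was called lower (MLX) and 0 higher. MLX, a partner of the glucose-responsive factors of this network, had 74, 34, 40 and 35 counts in shPTBP1 and 90, 83, 74 and 69 in shSCR, a log2 fold change of -0.77 ± 0.20 (SE, adjusted p = 0.0448 in edgeR). That difference was carried by 1 transcript, MLX-206, annotated as a retained intron, with 49, 0, 0 and 0 counts in shPTBP1 and 62, 54, 38 and 50 in shSCR. The other MLX transcripts held 25, 34, 40 and 35 counts in shPTBP1 and 28, 29, 36 and 19 in shSCR. With all transcripts of this all-or-none kind left out, defined below, the log2 fold change of MLX was 0.27 (adjusted p = 0.515). MNT, a repressor that competes with MYC for MAX and that was singled out after its values were seen, failed the filter on low counts, with 1, 3, 1 and 6 counts in shPTBP1 and 19, 8, 14 and 12 in shSCR. Its groups did not overlap, and without the filter its log2 fold change was -2.19 ± 0.50 (SE). In the fits that leave out 1 library, MNT passed the filter in 5, through its counts in shSCR, the group where it is higher. Since MNT was also singled out by its values, its p values do not test the difference and are left out.

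The RNA polymerase I genes had negative values throughout, none past the test. All 5 were tested, with a median log2 fold change of -0.29, a range of -0.54 to -0.00028 and a lowest adjusted p of 0.38. UBTF, which binds and opens the ribosomal DNA, had normalized CPM of 7.59, 5.95, 5.27 and 9.60 in shPTBP1 and 4.92, 10.8, 11.3 and 14.8 in shSCR. The lowest of the 8 UBTF values was in a shSCR library, and the interval of its log2 fold change ran from -1.29 to 0.20, so that both a more than 2-fold loss and a small gain are within it. Its log2 fold change was -0.54. When 1 library was left out it ran from -0.78 (without the first shSCR library) to -0.33 (without the fourth shSCR library). POLR1C, a subunit shared by RNA polymerases I and III, had 127, 122, 62.5 and 125 CPM in shPTBP1 and 109, 141, 155 and 137 in shSCR. Its log2 fold change of -0.31 ± 0.18 (SE, adjusted p = 0.38) rested on the third shPTBP1 library, whose value was the lowest of all 8, and was -0.11 without it. POLR1C shares its locus with YIPF3 and XPO5 on the other strand, which had 2161 and 1194 counts over the 8 libraries beside its own 1523, and the sources used here do not say whether counting used the strand. The same holds for FTSJ3, NOP16, WDR12, HEATR1 and TSR1, which overlap PSMC5 (7711 counts beside 1595), HIGD2A (5916 beside 1929), NBEAL1 (1728 beside 62), LGALS8 (1146 beside 584) and SRR (401 beside 288) on the other strand. POLR1A, the largest subunit, and POLR1B, the other large subunit of the catalytic core, had log2 fold changes of -0.29 and -0.00028, with intervals of -1.20 to 0.63 and -0.54 to 0.54. TCOF1, the treacle protein that joins transcription to processing, had an interval of -0.59 to 0.46. Of 17 further polymerase I subunits and factors, 16 were tested and 0 were called in either direction, with 13 positive values and a median of 0.05.

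The scaffold proteins and chaperones of the nucleolus held the member closest to the threshold. GNL3, or nucleostemin, a GTPase of the nucleolus abundant in stem and cancer cells (chromosome 3, 52681156 to 52694497, hg38), had 294, 272, 255 and 271 normalized CPM in shPTBP1 and 236, 215, 239 and 234 in shSCR. Every shPTBP1 library was above every shSCR library, and the means were 273 ± 15.7 and 231 ± 10.8 (SD, n = 4 each). The log2 fold change was 0.24 ± 0.07 (SE), with an interval of 0.09 to 0.39 and an adjusted p of 0.0584 in edgeR. GNL3 was the only 1 of the 43 tested members whose groups did not overlap (2.33%), where 12.7% of all genes tested did not overlap (6.32% higher and 6.37% lower). GNL3 overlaps PBRM1 and GLT8D1 on the other strand, which had 60 and 183 counts over the 8 libraries beside its own 3132. Over 16 alternative fits its value stayed positive, from 0.21 to 0.27, and its adjusted p ran from 0.0406 to 0.121, under 0.05 in 3 of them. DDX21, an RNA helicase that acts in both transcription and processing of ribosomal RNA, had 140.5, 135, 124 and 126 CPM in shPTBP1 and 103, 128, 115 and 107 in shSCR. The second shSCR library lay above the 2 lowest shPTBP1 libraries, and the log2 fold change was 0.22 ± 0.09 (SE, adjusted p = 0.192).

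NPM1, or nucleophosmin, a chaperone of ribosome assembly and a gene often mutated in this leukemia, had 184, 164, 188 and 195 CPM in shPTBP1 and 159, 133, 171 and 174 in shSCR. These ranges overlap, and the log2 fold change was 0.20 ± 0.09 (SE, adjusted p = 0.262), and 0.12 without the second shSCR library. NPM1 has 49 listed pseudogenes, of which 2 had counts, 19 in all over the 8 libraries. Few of the reads kept by the authors' filter on mapping quality were thus placed on its copies. Reads that the filter removed were not examined. NCL, or nucleolin, which binds the ribosomal RNA precursor, had 577, 537, 552 and 515 CPM in shPTBP1 and 529.7, 607, 551 and 494 in shSCR, with means of 545 ± 25.9 and 545 ± 47.2 (SD, n = 4 each). Its interval, -0.15 to 0.15, was among the narrowest of the set. NOLC1, a chaperone of the snoRNPs, had an interval of -0.06 to 0.30, and LYAR, a nucleolar factor of cell growth, one of -0.24 to 0.19.

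**Figure D2:**
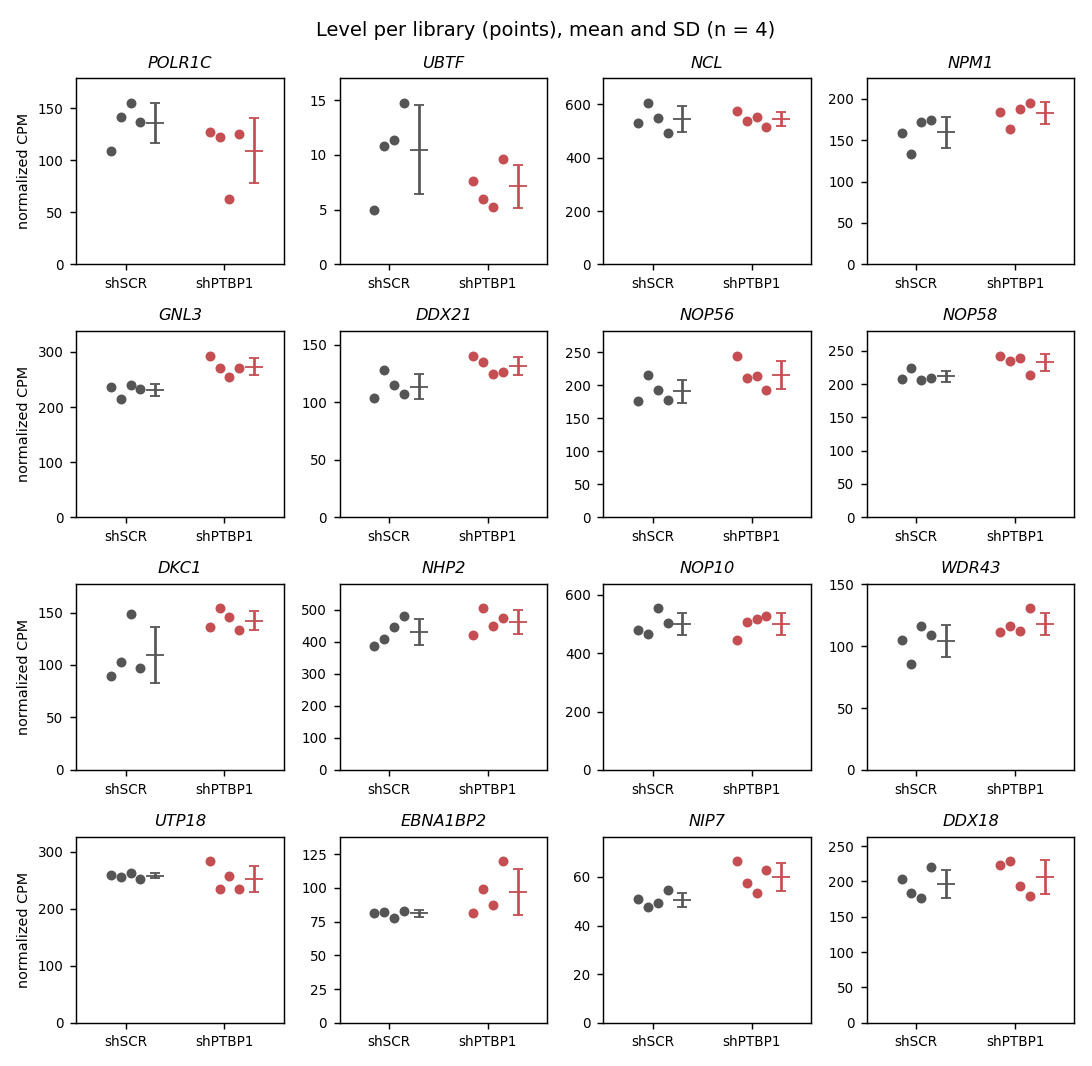
Normalized CPM (vertical axes, from 0) of 16 members in each shSCR (grey) and shPTBP1 (red) library, with the mean and SD (n = 4) beside the points. Only GNL3 has all 4 shPTBP1 points above all 4 shSCR points; the third shSCR point of DKC1, 149 CPM, and the third shPTBP1 point of POLR1C, 62.5 CPM, stand apart from their groups.

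None of the box C/D genes passed the test. NOP56, a core protein of these particles, had 245, 211, 214 and 193 CPM in shPTBP1 and 176, 215, 192 and 178 in shSCR, a log2 fold change of 0.18 ± 0.09 (SE, adjusted p = 0.285) that was 0.12 without the first shPTBP1 library. Its partner NOP58 had 243, 235, 239.6 and 214 CPM in shPTBP1 and 207, 224, 206 and 209 CPM in shSCR, a log2 fold change of 0.14 ± 0.07 (SE, adjusted p = 0.294). For both, 1 shSCR library lay among the shPTBP1 values. FBL, or fibrillarin, the methyltransferase itself, had an interval of -0.22 to 0.12, and RRP9, which binds the U3 snoRNA, one of -0.46 to 0.02.

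The highest log2 fold change of the set was that of the box H/ACA gene DKC1, and it rested on a single transcript. DKC1, or dyskerin, the pseudouridine synthase, had 137, 154, 145 and 133 normalized CPM in shPTBP1 and 89.7, 103, 149 and 97.5 in shSCR. The third shSCR library lay among the shPTBP1 values and the other 3 lay below all of them, and the log2 fold change was 0.38 ± 0.13 (SE, adjusted p = 0.123 in edgeR). Without the third shSCR library it was 0.56, and DKC1 was called (adjusted p = 0.00686). The transcript DKC1-211, annotated as a retained intron of 3 exons and 1303 bases, held 94, 88, 83 and 86 counts in shPTBP1 and 0, 0, 85 and 0 in shSCR. Where it had counts it held 37.6% to 43.5% of those of DKC1, and its mean share was 40.05% ± 2.89 in shPTBP1 and 9.53% ± 19.1 in shSCR (SD, n = 4 each, adjusted p = 0.576 in the isoform test of edgeR). All other DKC1 transcripts together had 122, 145, 138 and 122 counts in shPTBP1 and 146, 162, 138 and 152 in shSCR. These overlap, with means of 85.5 ± 9.28 and 95.6 ± 6.003 CPM (SD), and with transcripts of this kind left out the log2 fold change of DKC1 was -0.16 (adjusted p = 0.377), of the other sign. Counting protein-coding transcripts alone it was -0.19 (adjusted p = 0.348).

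DKC1-211 begins at the first base of SNORA56, a box H/ACA snoRNA of 129 bases encoded within intron 12 of the coding transcript DKC1-201, and runs through the rest of that intron into the next exon. Of the member transcripts with counts, it was the only 1 that begins at the first base of a snoRNA gene. Its intron stretch is shown because the DKC1 value turns on it, read from hg38, with the AG at the end of the intron in capitals and the first 129 bases being SNORA56.
DKC1-211 start (chrX:154774998-154775194, plus strand): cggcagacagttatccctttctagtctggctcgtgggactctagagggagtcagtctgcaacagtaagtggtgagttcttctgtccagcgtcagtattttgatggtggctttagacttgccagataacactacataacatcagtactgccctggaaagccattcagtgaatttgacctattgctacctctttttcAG
In all, 27 snoRNA genes lie inside 8 of the 49 members (16.3%), namely WDR43, NOP58, NCL, GNL3, TSR1, PPAN, NOP56 and DKC1, and inside 2.26% of all genes tested. NHP2, which binds the guide RNA with dyskerin, had 420.1, 505, 448 and 475 CPM in shPTBP1 and 388, 410.1, 447 and 479.9 in shSCR, with an interval of -0.07 to 0.27. NOP10, a small structural protein of the same particle, had 444, 507, 515 and 527 CPM in shPTBP1 and 477, 466, 553 and 503 CPM in shSCR, with an interval of -0.16 to 0.15. GAR1, which completes the particle, had a log2 fold change of -0.16 and a wider interval, -0.61 to 0.29.

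Transcripts at 0 in whole libraries were not particular to DKC1. Over all genes, 411 of the 8891 transcripts that reached 20 counts in some library were at 0 in another (4.62%), and in the set 2 of 57, DKC1-211 and NOC2L-204, both annotated as retained introns. NOC2L, a large subunit factor that also represses p53 targets, was the only member with an unadjusted p under 0.05 for a lower level, with 179, 114, 143 and 109 counts in shPTBP1 and 185, 209, 159 and 141 in shSCR. Of these, NOC2L-204 held 0 in all 4 shPTBP1 libraries and 29, 24, 25 and 0 in shSCR. The log2 fold change of NOC2L was -0.33 ± 0.15 (SE, adjusted p = 0.249) with it and -0.16 (adjusted p = 0.538) without transcripts of this kind. Whether such transcripts were absent from the RNA or were not assigned reads in those libraries was not tested.

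No isoform switch was called in the set. Of 35 isoforms tested in 13 members, 0 were called by edgeR (1.12% of all isoforms tested were) and 1, DKC1-211, had an unadjusted p under 0.05 (6.37% of all did). In limma's test DKC1-211 was called. Apart from DKC1, the largest change of a mean share among the isoforms tested was 7.31 percentage points, for NOP14-205. It had 10, 0, 10 and 14 counts in shPTBP1 and 0, 0, 12 and 8 in shSCR. NOC2L-204 and NOC2L-201 were not in the main isoform test, and their mean shares changed by -10.7 and 8.88 points. NOLC1-207 held 10.4% ± 1.24 of the NOLC1 counts in shPTBP1 and 7.30% ± 1.42 in shSCR, and NPM1-233 held 3.24% ± 0.922 and 5.22% ± 1.41 of the NPM1 counts (SD, n = 4 each, adjusted p = 0.809 and 1). In 26 of the 43 tested members 1 isoform held at least 90% of the counts, and the median share of the main isoform was 95.3%. Transcripts not annotated as protein coding held 11.3% to 11.8% of member counts in shPTBP1 and 10.4% to 11.9% in shSCR.

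Most of that share came from NCL. NCL-220, annotated as subject to nonsense-mediated decay, held 80.8% ± 0.451 of the NCL counts in shPTBP1 and 82.4% ± 1.399 in shSCR (SD, n = 4 each), and NCL-201, a coding transcript, held 6.04% ± 0.436 and 5.66% ± 0.949. NCL was the only tested member whose main isoform was not annotated as protein coding. Exon 12 of NCL-220 is 23 bases longer than that of NCL-201, which is not a multiple of 3. The stretch is shown because it is an annotated difference between the main NCL transcript and a coding one, with the 23 bases in capitals. The lower-case bases before them belong to the intron and not to exon 12, and those after them to the exon in both transcripts.
NCL-220 exon 12 (chr2:231456125-231456189, minus strand): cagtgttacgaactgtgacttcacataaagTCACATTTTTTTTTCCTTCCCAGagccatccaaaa
The reads across these bases were not examined, so the share is that of the deposited assignment. With protein-coding transcripts alone, the log2 fold change of NCL was 0.19 (adjusted p = 0.42).

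Small subunit genes centered on 0. Of 14 members, 13 were tested, with 7 positive and 6 negative values and a median log2 fold change of 0.01. UTP18, a protein of the small subunit processome, which forms on the new precursor, had 283, 235, 257 and 235 CPM in shPTBP1 and 259, 257, 263 and 253 in shSCR, with an interval of -0.19 to 0.13. Its shSCR values all lay inside the range of the shPTBP1 values. WDR43, which joins the processome early, had 111, 116, 113 and 131 CPM in shPTBP1 and 105, 86.0, 117 and 109 CPM in shSCR, a log2 fold change of 0.18 ± 0.10 (SE, adjusted p = 0.369) that was 0.10 without the second shSCR library. TSR1, which blocks early translation on the maturing 40S subunit, had 33, 34, 51 and 38 counts in shPTBP1 and 35, 29, 38 and 30 in shSCR, and its log2 fold change of 0.26 ± 0.19 was 0.10 without the third shPTBP1 library. UTP4, NOB1, the nuclease that trims the RNA of the small subunit, and NAT10, which acetylates that RNA, had intervals of -0.19 to 0.21, -0.19 to 0.21 and -0.17 to 0.25. For HEATR1, DDX10, BYSL, WDR75, NOP14, PNO1 and WDR3 the log2 fold changes ran from -0.16 to 0.11. RRP12, an export factor, was too low to test, with 2, 2, 0 and 2 counts in shPTBP1 and 1, 1, 4 and 2 in shSCR. The count of 0 of RRP12 in the third shPTBP1 library allows a level of up to 1.91 CPM, for counting error only.

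Large subunit genes had 9 positive and 2 negative values among the 11 of 16 tested, with a median of 0.07. NIP7, an early 60S factor, had 66.4, 57.5, 53.3 and 62.7 normalized CPM in shPTBP1 and 51.0, 47.8, 49.3 and 54.5 in shSCR. Only the lowest shPTBP1 library fell below the highest shSCR library, and the log2 fold change was 0.24 ± 0.11 (SE, adjusted p = 0.235). EBNA1BP2, a nucleolar scaffold of the early 60S particle, had 81.6, 99.1, 87.6 and 119.7 CPM in shPTBP1 and 81.7, 82.1, 77.4 and 82.8 CPM in shSCR, a log2 fold change of 0.26 ± 0.11 (SE, adjusted p = 0.236). Its shSCR values were close together and the spread lay in shPTBP1, and the value fell to 0.14 without the fourth shPTBP1 library. DDX18, an RNA helicase and the member of this role with the most counts, had 223, 229, 193 and 179.9 CPM in shPTBP1 and 204, 184, 177 and 220.1 CPM in shSCR and an interval of -0.13 to 0.28. RRS1, MRTO4, NOP16, NOP2, PPAN and FTSJ3 had log2 fold changes between 0.03 and 0.30, and PES1, of the PES1, BOP1 and WDR12 complex, had -0.19 ± 0.11.

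Its partners BOP1 and WDR12, with GRWD1, RRP1 and SURF6, were too low to test. BOP1 had 5, 7, 2 and 0 counts in shPTBP1 and 2, 4, 2 and 7 in shSCR, and the 0 in the fourth shPTBP1 library allows up to 1.86 CPM. WDR12 had 9, 3, 8 and 4 counts in shPTBP1 and 11, 7, 8 and 12 in shSCR. GRWD1, a chaperone of a ribosomal protein, had 4, 8, 7 and 7 counts in shPTBP1 and 4, 6, 1 and 3 in shSCR. RRP1, a nucleolar factor of the large subunit, had 4, 4, 5 and 1 counts in shPTBP1 and 6, 4, 3 and 3 in shSCR. SURF6, another, had 14, 6, 7 and 7 counts in shPTBP1 and 6, 5, 7 and 6 in shSCR. In the fit without a filter on low counts the log2 fold changes of these 5 genes and RRP12 ran from -0.63 (WDR12) to 0.90 (GRWD1), with adjusted p of 0.557 to 0.996 in edgeR. The interval for GRWD1, -0.21 to 2.01, shows how little these counts limit a change.

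In the wider pathway, 1 gene was called. Of 144 further genes of ribosome biogenesis on the lists, 130 were tested, 0 were called lower and 1 was called higher, with a median log2 fold change of 0.04. Over all genes tested, 3.19% were called lower and 2.36% higher. At an unadjusted p under 0.05, 3 of the 130 were lower and 8 higher, where 10.1% of all genes tested were lower and 9.1% higher. The called gene was NUFIP1, which helps to assemble box C/D snoRNPs, with 24, 28, 26 and 20 counts in shPTBP1 and 5, 0, 9 and 13 in shSCR. The groups did not overlap, and the log2 fold change was 1.86 ± 0.47 (SE, adjusted p = 0.0359 in edgeR). NUFIP1 passed the filter on low counts through its counts in shPTBP1, the group where it is higher. Its p values, here and below, therefore do not by themselves test the difference. With a count of 0 in the second shSCR library and low counts in the others, the size of this change is uncertain, with an interval of 0.85 to 2.87. Its adjusted p lost the threshold without any 1 of 6 libraries (0.0576 to 0.11) and held without the second or the fourth shSCR library. With transcripts at 0 in a library and at 20 or more counts in another left out, NUFIP1 was not among the genes tested. Over the remaining lists the counts called were 0 of 42 small subunit factors, 0 of 40 large subunit factors and 0 of 23 cleavage, exosome and RNase MRP genes.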

How the data were processed

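Long-read cDNA of 8 MOLM-13 libraries was analysed. The authors aligned nanopore reads to hg38 with minimap2, filtered them by mapping quality and obtained transcript counts with StringTie. Versions and annotation are not given in the sources used here. The deposited counts are whole numbers, not normalized. A further deposited table, of normalized values, was not used.

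Of 254070 transcripts, 252562 were matched by identifier to GENCODE 44 and summed per gene. The other 1508 (0.0876% to 0.115% of counts) were left out. Genes passing filterByExpr (minimum count 10) were tested with edgeR 4.0.16 (TMM, quasi-likelihood test, group as the only term) and adjusted over all 7597. Isoform usage was tested with diffSpliceDGE, at a change of at least 10 percentage points. Members of a group are named by library number as labelled. The 95% intervals are those of the edgeR fit, and limits for a count of 0 use 3 counts. Depth was even across libraries, so precision differs mainly between genes. The main gene test and the main isoform test were also run on simulated counts, and the alternatives were not.

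The members and lists were chosen with earlier results of these data known. Genes named are PTBP1, MYC, in each role the 2 with the smallest p and the 1 with the most counts, the 3 members with the smallest isoform p, members failing the filter, and called genes of the lists. Others serve to account for all members, and MNT was chosen after its values were seen. The erythroid marker list is not reported here as a whole. Promoter windows are from RefSeq (GRCh38.p14). The 51 windows of members equal hg38.

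Alternatives were DESeq2 1.42.0, limma-voom 3.58.1, other size factors, other filters, a replicate block, protein-coding transcripts alone, leaving out each library, and, added after the data were seen, leaving out transcripts at 0 in a library and with at least 20 counts in another. R 4.3.3 and Python 3.11.15 were used.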

Additional observations from a re-analysis of the deposited data

Results flagged for a closer look

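Of 56 groups of 4 libraries examined, 6 held 1 library far from the other 3. The groups were not independent, since the counts of MLX-206 are part of those of MLX. DKC1-211 and MLX-206 were also examined because of their counts of 0. The number of groups flagged can therefore not be compared with a rate by chance. The third shPTBP1 library had 62.5 CPM of POLR1C, and the other shPTBP1 libraries 122 to 127 CPM. The first shPTBP1 library had 46.8 CPM of MLX, and the others 22.4 to 26.3 CPM. The third shSCR library had 85 counts of DKC1-211, where the other shSCR libraries had 0. The first shPTBP1 library had 49 counts of MLX-206, where the other shPTBP1 libraries had 0. The first shPTBP1 library had 0.569% of its counts on the set, the highest share of the 8 libraries. The second shSCR library had 1.09% of its counts on mitochondrially encoded genes, the lowest of the 8.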

How the results depend on the processing

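The count of members called lower was 0 in every alternative, and the count called higher was 0 or 1. It was 1 with a mean of at least 50 counts (GNL3), with protein-coding transcripts alone (GNL3), without transcripts at 0 in a library and at 20 or more counts in another (GNL3), and without the third shSCR library (DKC1), so that leaving out 1 library gave 0 to 1. Over all genes, these fits called 174 of 3683, 174 of 6938, 231 of 7440 and 132 of 7807 genes higher, in that order. The median log2 fold change of the members stayed between -0.0046 and 0.075 when 1 library was left out. Called pathway genes numbered 0 with DESeq2, 0 with a mean of at least 50 counts (NUFIP1 had no adjusted p in DESeq2, with a log2 fold change of 1.88, and was not among the genes tested in the other), 2 with protein-coding transcripts alone and 0 to 1 when 1 library was left out. The 1 called without the first shSCR library was a gene other than NUFIP1 (adjusted p = 0.0816 in edgeR for NUFIP1). Without transcripts at 0 in a library and at 20 or more counts in another, 1 was called, again a gene other than NUFIP1. Called member isoforms numbered 1 in limma's test (DKC1-211) and 0 to 2 when 1 library was left out, with DKC1-201 and DKC1-211 called without the third shSCR library and NOC2L-204 without the fourth.

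The sign turned with protein-coding transcripts alone for DKC1 (-0.19), MLX (0.29) and NOP10 (0.0026), and without transcripts at 0 in a library for DKC1 (-0.16), MLX (0.27) and NCL (-0.00075). Genes near 0 also turned: NOP10 with DESeq2 (0.0032) and with no filter (0.0017), and NCL (-0.017) and MYC (-0.011) with a mean of at least 50 counts. Leaving out 1 library gave -0.043 to 0.056 for NCL, -0.036 to 0.049 for NOP10, -0.090 to 0.0019 for UTP18 and -0.035 to 0.043 for MYC. MLX lost its call with DESeq2 (-0.76, adjusted p = 0.0504) and kept it without the first shPTBP1 library only, of the 8 left out in turn. Apart from these constructions, the cause was not tested.

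Labels give both groups the same replicate numbers. The correlation of deviations between libraries of the same number was -0.0328 to 0.00889, and 0 of 8 libraries correlated best with their own number, so the numbers were not taken as pairs. With the replicate block, edgeR called 186 genes lower and 137 higher over all genes, 0 members, and 0 pathway genes, NUFIP1 having a log2 fold change of 1.91 (adjusted p = 0.0802).

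Depth limits the 6 members not tested, and the widest interval among those tested was that of POLR1A (-1.20 to 0.63).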
